A study of Mus musculus with 8 samples.

Results

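Genes of the TNF and NF-kB pathway were followed across 8 libraries of colonic mucosa. They were 10 in number: Tnf, its receptors Tnfrsf1a and Tnfrsf1b, the NF-kB subunit genes Nfkb1, Nfkb2, Rela and Relb, and the feedback and IkB family genes Nfkbia, Tnfaip3 and Bcl3. They were chosen by name, with earlier results of these data known. All 10 were among the 17353 genes of the deposited tables. All 10 also passed the filter on low counts that left 13381 genes for testing. Every animal was a male wild-type C57BL/6J mouse sampled on day 7, with 2 animals in each of 4 groups. Control mice received saline enemas and no dextran sulfate sodium (DSS), a polysaccharide that damages the colonic epithelium when it is drunk. DSS model mice received saline enemas and 3% DSS. The 2 treated groups also received 3% DSS, together with enemas of Kuiyangling, the herbal preparation the study tested, at 10 g/kg, or of mesalazine, an aminosalicylate given for ulcerative colitis, at 50 mg/kg. Each enema had a volume of 0.2 ml. Colitis of this kind is an acute chemical injury, and no treated group without DSS was analysed here.

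TNF is a cytokine made by macrophages, T cells and other cells. It binds a receptor that most cells carry, encoded by Tnfrsf1a, and a second one found mainly on immune and endothelial cells, encoded by Tnfrsf1b. Binding activates the IKK kinase complex, which marks the inhibitor IkB-alpha for destruction and so lets NF-kB dimers enter the nucleus. Among the genes that NF-kB switches on are several of its own inhibitors, and antibodies against TNF are used to treat inflammatory bowel disease. Much of this regulation acts on proteins, which these RNA data do not measure.

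The libraries held 15560946 to 17843715 counts and detected 15217 to 15689 genes. Of the 8, control 2 and mesalazine 1 were the least like the others, with mean rank correlations of 0.945 and 0.940 against 0.963 to 0.974 for the rest. Ribosomal protein genes took 12.7% of the counts of mesalazine 1 and 3.35% to 6.68% elsewhere. The 7 colonic epithelial markers summed to 24615 to 32278 CPM in every library. Single markers varied more than their sum. Muc2 had 12855 CPM in control 1 and 3950 in mesalazine 2, and Car1 had 3280 in control 2 and 12515 in Kuiyangling 1. CPM is the count of a gene scaled to the depth of its library. The tests compared group means of 2 animals with edgeR's quasi-likelihood test, and p-values were adjusted over all tested genes by the Benjamini-Hochberg method. They measure the spread between these animals, and an exact permutation of 2 against 2 libraries cannot give a two-sided p below 0.333.

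None of the 10 genes passed an adjusted p of 0.05 in any of the 9 comparisons made with edgeR. In CPM, Tnf, both receptor genes, Nfkbia and Bcl3 were higher in the 2 DSS model libraries than in all 6 others, as were 4.06% of tested genes. For Bcl3 this was narrow, at 58.5 CPM in DSS model 2 against 58.3 CPM in control 2, and it did not hold in FPKM. For the subunit genes Nfkb1, Nfkb2, Rela and Relb the log2 changes lay between -0.29 and 0.28 in the DSS model and with each treatment against it. Their SEs of 0.26 to 0.34 are too wide to show an absence of change. Tnfaip3 was lower in the treated groups than in control. In bulk RNA, fewer cells of a type and less RNA per cell cannot be told apart.

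Tnf encodes the ligand. Its level was 3.96 and 4.62 CPM in the control libraries and 14.3 and 9.95 CPM in the DSS model libraries. It was 3.61 and 2.63 CPM with mesalazine and 4.27 and 3.37 CPM with Kuiyangling. Both DSS model values lay above every other library, and the treated libraries lay within or below the control range. Between 45 and 227 counts stood behind each value, and the limit set by 3 counts was 0.149 to 0.212 CPM.

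Against control, Tnf was 2.82-fold higher in the DSS model, a log2 change of 1.50 (SE 0.37), with an adjusted p of 0.138 and an unadjusted p of 0.00235 in edgeR. With Kuiyangling the log2 change against the DSS model was -1.66 (SE 0.37), with an adjusted p of 0.996 and an unadjusted p of 0.00121. With mesalazine it was -1.96 (SE 0.38), with an adjusted p of 0.334 and an unadjusted p of 0.000423. These comparisons share the DSS model libraries, so a high value there enters all of them. Between the treatments Tnf differed by 0.30 (SE 0.38), Kuiyangling above mesalazine, and against control the treated groups stood at -0.17 (SE 0.37) and -0.46 (SE 0.38) respectively. The adjusted p of these last 3 differences was 0.517 or more in edgeR.

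**Figure D1:**
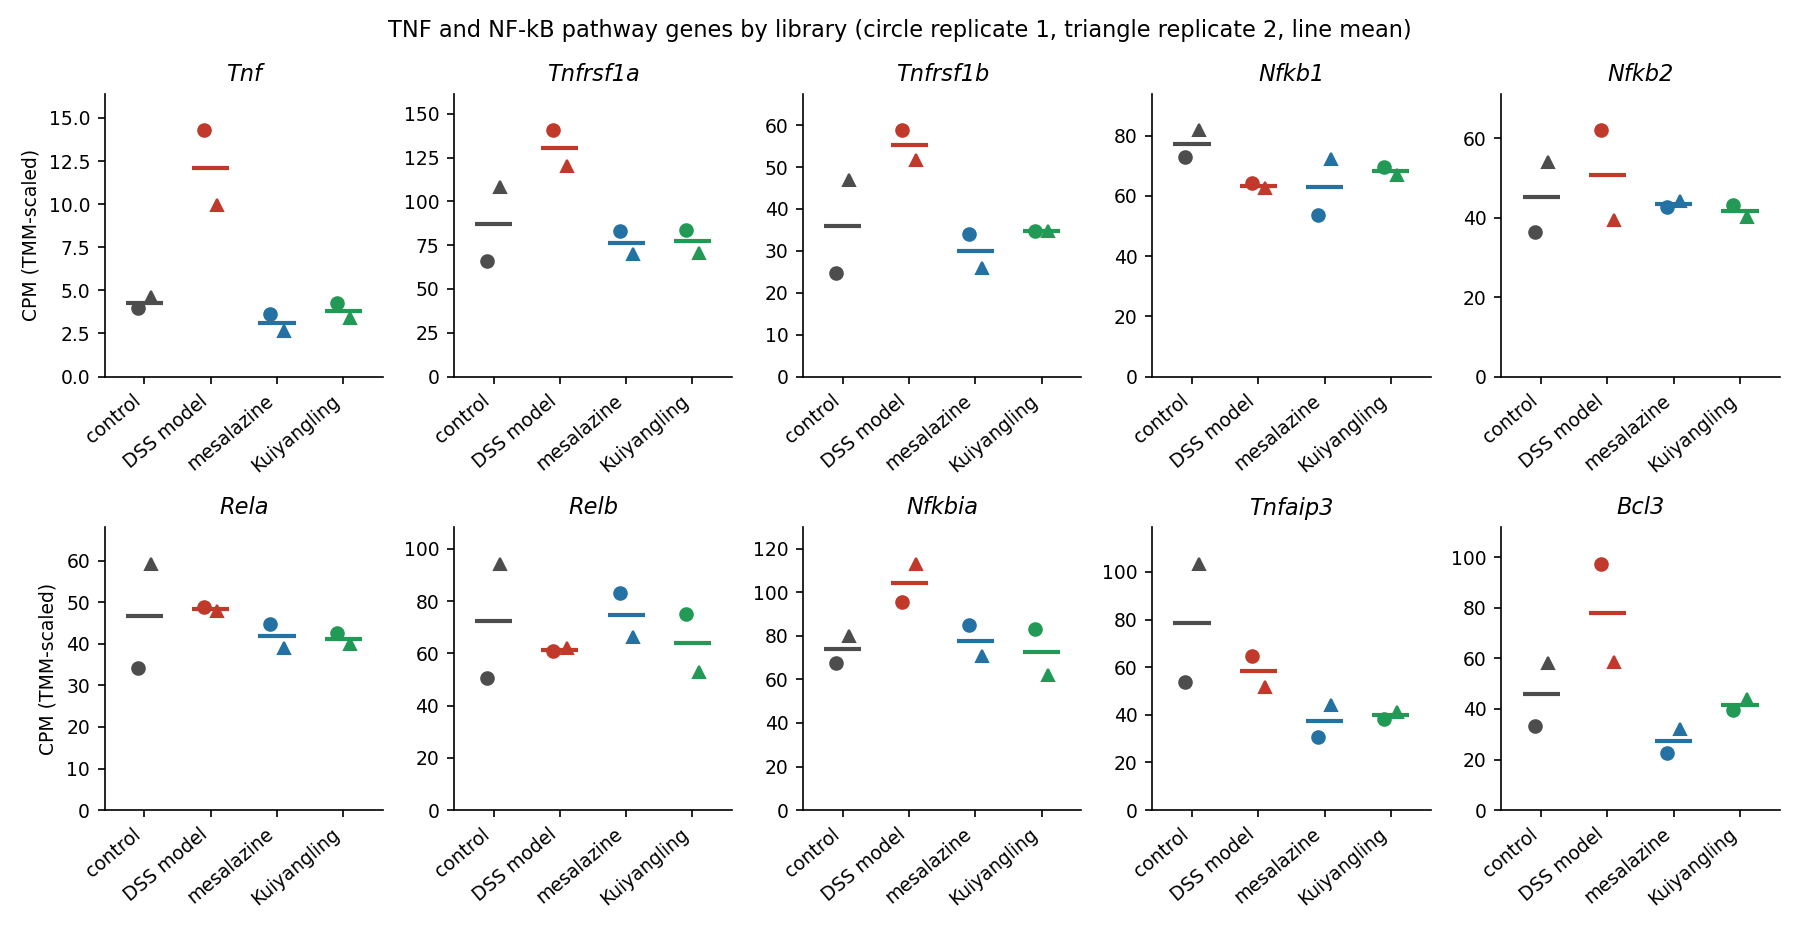
Level of each of the 10 genes in every library, in CPM on an axis that starts at 0, with the 4 groups along the x axis; circles are replicate 1, triangles replicate 2 and lines the group mean. The DSS model points of Tnf, at 14.3 and 9.95 CPM, stand above all others, while those of Rela, at 48.8 and 47.9 CPM, lie between the control points.

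Tnfrsf1a, which encodes the receptor with a death domain, had 65.9 and 108 CPM in control and 141 and 120 CPM in the DSS model. It had 83.3 and 69.7 CPM with mesalazine and 83.8 and 70.6 CPM with Kuiyangling. The DSS model libraries did not overlap any other group, and control 2 was the nearest to them. The log2 change was 0.58 (SE 0.30, adjusted p = 0.378 in edgeR) in the DSS model, -0.75 (SE 0.30, adjusted p = 0.996) with Kuiyangling and -0.77 (SE 0.30, adjusted p = 0.809) with mesalazine, the last 2 against the DSS model.

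Tnfrsf1b, the receptor gene without a death domain in its product, followed the same order of groups. Its levels were 24.7 and 47.0 CPM in control, 58.7 and 51.7 CPM in the DSS model, 34.1 and 25.9 CPM with mesalazine and 34.8 and 34.6 CPM with Kuiyangling. Again both DSS model libraries were the highest, and control 2 was the next. The log2 changes were 0.62 (SE 0.32, adjusted p = 0.378 in edgeR), -0.67 (SE 0.32, adjusted p = 0.996) and -0.88 (SE 0.32, adjusted p = 0.747) in the same order of comparisons.

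The receptors kept a nearly fixed proportion to each other. On the scale of FPKM, fragments scaled to gene length and library depth, which allows levels of different genes to be compared, the log2 ratio of Tnfrsf1b to Tnfrsf1a was -2.61 and -2.40 in control and -2.45 and -2.41 in the DSS model. It was -2.48 and -2.62 with mesalazine and -2.46 and -2.22 with Kuiyangling, so every group's range met another's.

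Promoter sequences are shown here for the 4 genes whose promoter held a kappaB match, since NF-kB binds such sites. These genes encode an NF-kB subunit or products of the feedback and IkB family. In the RefSeq table of mouse promoters (GRCm38.p6, 250 bases before to 50 after each start), 8 of the 10 genes had an entry. Each line gives 30 bases, 5′ to 3′ on the gene's own strand, and the capitals mark the match to the kappaB consensus, searched on both strands.
Nfkbia, chr12:55492657-55492686, minus strand: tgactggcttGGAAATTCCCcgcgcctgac
Tnfaip3, distal, chr10:19015516-19015545, minus strand: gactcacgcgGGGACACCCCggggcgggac
Tnfaip3, proximal, chr10:19015403-19015432, minus strand: aatttccatcGGAAATCCCCctgttggcaa
Nfkb2, distal, chr19:46304688-46304717, plus strand: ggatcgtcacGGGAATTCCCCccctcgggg
Nfkb2, proximal, chr19:46304716-46304745, plus strand: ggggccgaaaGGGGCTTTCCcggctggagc
Bcl3, chr7:19822734-19822763, minus strand: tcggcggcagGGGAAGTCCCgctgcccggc

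The Nfkbia match lay 29 to 20 bases before the start, the proximal Tnfaip3 match 12 to 3 bases before it, and the Bcl3 match 3 to 12 bases after it. In Nfkb2 the distal capitals hold 2 overlapping matches. Other Nfkb2 starts in the table held further matches, which are not printed. A match was found in 4 of the 8 genes with an entry, in 21 of 78 other pathway genes with one, and in 8.46% of all 32851 promoters or 12.2% of the 10673 tested genes with a promoter. The Tnf, Tnfrsf1a, Tnfrsf1b and Rela windows held no match, which says only that these letters are absent from those 300 bases. Matches are a description of sequence and do not show binding in these mice. Whether genes with a match share a pattern of levels was not tested. Nfkbia and Bcl3 had their highest CPM in the DSS model libraries, and for Nfkb2 the control and DSS model libraries overlapped. Tnfaip3 had its highest mean in control through control 2, at 103 CPM, while control 1, at 53.8 CPM, lay between the DSS model libraries.

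The 4 subunit genes encode the DNA-binding proteins: Rela and Nfkb1 products form the dimer of the classical route, and Relb and Nfkb2 products that of the alternative route. Rela was at 34.3 and 59.3 CPM in control, 48.8 and 47.9 in the DSS model, 44.9 and 39.1 with mesalazine, and 42.7 and 39.9 with Kuiyangling. The control libraries spanned the whole range of the other 6. The log2 change of Rela in the DSS model was 0.05 (SE 0.29, adjusted p = 0.943 in edgeR), and it was -0.30 without control 1 and 0.50 without control 2.

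Nfkb1 stood at 72.8 and 81.8 CPM in control and 64.3 and 62.5 CPM in the DSS model. It stood at 53.7 and 72.3 CPM with mesalazine and 69.4 and 66.9 CPM with Kuiyangling. Both controls were above all 6 DSS-exposed libraries, narrowly so for control 1 against mesalazine 2. The log2 change in the DSS model was -0.29 (SE 0.26, adjusted p = 0.591 in edgeR).

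Relb had 50.4 and 94.3 CPM in control, 60.8 and 61.9 CPM in the DSS model, 83.2 and 66.4 CPM with mesalazine and 75.2 and 52.7 CPM with Kuiyangling. Nfkb2 had 36.4 and 54.0 CPM, 62.0 and 39.5 CPM, 42.6 and 44.2 CPM and 43.1 and 40.1 CPM in the same order of groups. In both genes the control and DSS model libraries overlapped. The log2 changes in the DSS model were -0.24 (SE 0.34) for Relb and 0.17 (SE 0.30) for Nfkb2, and these signs turned without control 2 (0.28 for Relb) or without DSS model 1 (-0.19 for Nfkb2). Exons of Nfkb2 overlap Psd and a non-coding gene on the opposite strand in GENCODE M21, and no source used here says whether the counting used strand, so its counts may include theirs.

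Among subunits, the log2 FPKM ratio of Relb to Rela was lowest in the DSS model, at -0.79 and -0.73. It was -0.55 and -0.43 in control, -0.21 and -0.34 with mesalazine and -0.29 and -0.70 with Kuiyangling. The ratio of Nfkb2 to Nfkb1 was -2.41 and -2.01 in control and -1.46 and -2.07 in the DSS model, with overlap between them. No test was run on these ratios.

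Nfkbia encodes IkB-alpha, the inhibitor that holds NF-kB dimers in the cytoplasm. It was at 67.6 and 80.0 CPM in control and 95.7 and 113 CPM in the DSS model. It was at 85.0 and 70.7 CPM with mesalazine and 83.1 and 61.8 CPM with Kuiyangling. Both DSS model libraries were above the other 6, and treated and control libraries overlapped. The log2 change was 0.50 (SE 0.27, adjusted p = 0.393 in edgeR) in the DSS model, -0.53 (SE 0.27, adjusted p = 0.996) with Kuiyangling and -0.42 (SE 0.27, adjusted p = 0.978) with mesalazine.

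Bcl3 encodes an atypical IkB protein that acts in the nucleus with p50 or p52 homodimers. It had 33.3 and 58.3 CPM in control, 97.4 and 58.5 CPM in the DSS model, 22.6 and 32.1 CPM with mesalazine and 39.6 and 43.8 CPM with Kuiyangling. The lower DSS model library was almost level with control 2, and in FPKM the groups overlapped. The log2 change was 0.77 (SE 0.36, adjusted p = 0.345 in edgeR) in the DSS model, -0.90 (SE 0.36, adjusted p = 0.996) with Kuiyangling and -1.51 (SE 0.36, adjusted p = 0.503) with mesalazine. Bcl3 overlaps the antisense gene Gm16175, from which its reads could not be told apart without strand.

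Tnfaip3 encodes A20, an enzyme that edits ubiquitin chains and shuts down signalling to NF-kB. It had 53.8 and 103 CPM in control, 64.8 and 51.8 CPM in the DSS model, 30.8 and 44.0 CPM with mesalazine and 38.4 and 41.4 CPM with Kuiyangling. All 4 treated libraries were below all 4 others, and the controls lay far apart. Its log2 change was -0.43 (SE 0.34, adjusted p = 0.539 in edgeR) in the DSS model, -0.98 (SE 0.34, adjusted p = 0.333) for Kuiyangling against control and -1.07 (SE 0.35, adjusted p = 0.143) for mesalazine against control. Without control 2 its DSS model estimate was 0.12, of opposite sign and the same sign as that of Nfkbia. Without mesalazine 2 its change in mesalazine was -1.35 (adjusted p = 0.045 in edgeR), in a fit that called 19.6% of tested genes and in which the other groups set the spread of the lone mesalazine library.

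The feedback genes can also be set against each other within a library. The log2 FPKM ratio of Tnfaip3 to Nfkbia was -1.93 and -1.23 in control, -2.16 and -2.72 in the DSS model, -3.06 and -2.28 with mesalazine and -2.71 and -2.18 with Kuiyangling. All 6 DSS-exposed libraries lay below both controls, and the gap between -1.93 and -2.16 was smaller than the spread within each group. The ratio of Nfkbia to Rela was 1.84 and 1.30 in control and 1.83 and 2.10 in the DSS model. It was 1.78 and 1.72 with mesalazine and 1.82 and 1.50 with Kuiyangling. Both DSS model libraries lay above every treated library, narrowly so for 1.83 against 1.82, and control overlapped every other group. These ratios were not tested.

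**Figure D2:**
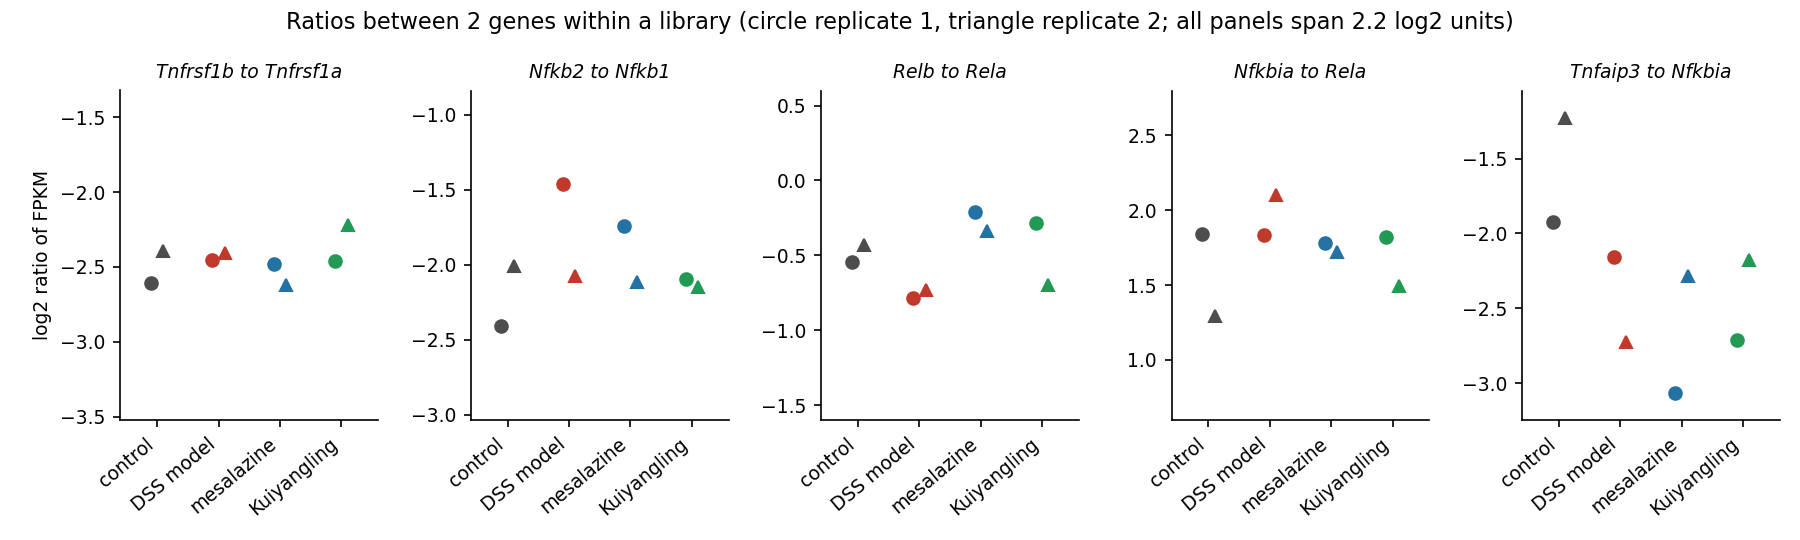
Log2 ratio of FPKM between 2 genes in each library, by group, with circles for replicate 1 and triangles for replicate 2; each panel spans 2.2 log2 units. In the panel of Tnfaip3 to Nfkbia the DSS-exposed libraries run from -3.06 to -2.16, below the controls at -1.93 and -1.23.

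By FPKM, Nfkbia and Tnfrsf1a led in every group and Tnf or Nfkb2 came last. In control the means were 49.8 ± 1.95 FPKM for Nfkbia and 42.6 ± 11.4 FPKM for Tnfrsf1a (SD, n = 2), which overlapped, followed by Bcl3 at 26.3 ± 8.18 FPKM. Nfkb1 (19.9 FPKM), Tnfaip3 (17.3), Rela (17.2), Relb (12.3) and Tnfrsf1b (7.65) came next, each overlapping its neighbour. Nfkb2 was at 4.35 FPKM and Tnf at 2.77 FPKM, apart from each other. In the DSS model Tnf ranked above Nfkb2, at 6.97 ± 1.61 against 4.39 ± 1.28 FPKM. The length behind Nfkb2, 10990 bases, is the longest of the 10 and sets its FPKM low, and the length behind Nfkbia, 1579 bases, is the shortest.

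**Figure D3:**
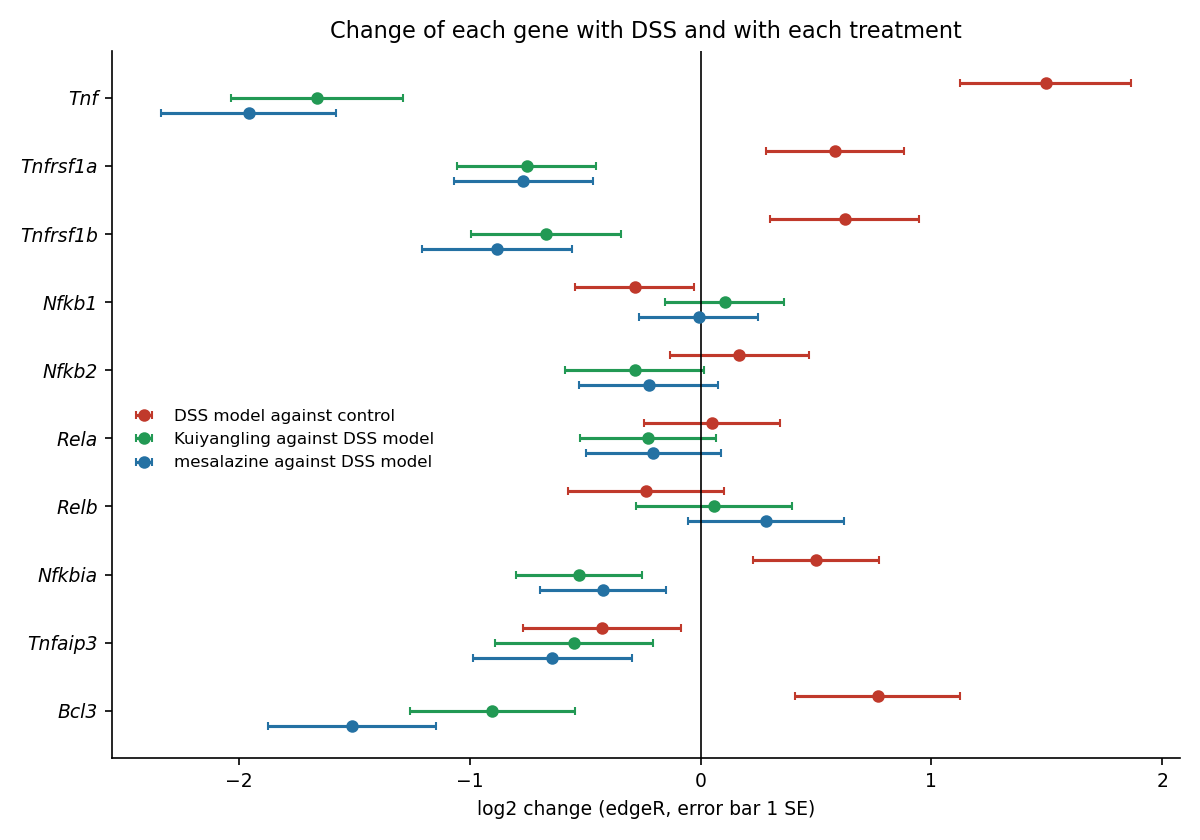
Log2 change of each gene in 3 comparisons, with bars of 1 SE from edgeR; the comparisons share the DSS model libraries. The red points of Tnf, Tnfrsf1a, Tnfrsf1b, Nfkbia and Bcl3 lie at 0.50 to 1.50 and their green and blue points below 0, and the 4 subunit genes lie between -0.29 and 0.28.

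Across the 10 genes, edgeR called 0 in the DSS model against control, where 0.247% of tested genes were called. At an unadjusted p under 0.05 there was 1, Tnf, and 14.8% of tested genes. DESeq2 called 1, beside 3.46% of tested genes. With limma on log2(FPKM + 1) or log2(FPKM + 0.1) the count was 0, beside 0.142% and 0.247%. Estimates were above 0 for 7 and below 0 for 3, with a median of 0.33 against -0.04 over all tested genes. The DSS model and control libraries did not overlap for 5 genes that were higher (27.1% of tested genes) and for 1, Nfkb1, that was lower (26.3%).

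For Kuiyangling against the DSS model 0 of 10 were called, beside 0% of tested genes. At an unadjusted p under 0.05 there were 3 (Tnf, Bcl3 and Tnfrsf1a), against 3.56% of tested genes. DESeq2 and limma called 0, beside 0.0972% and 0% of tested genes. The median estimate was -0.54, against 0.00 over all tested genes, and 8 estimates were below 0. The groups did not overlap for 7 genes that were lower (21.1% of tested genes) and for 1, Nfkb1, that was higher (21.9%).

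For mesalazine against the DSS model 0 of 10 were called, again beside 0% of tested genes. At an unadjusted p under 0.05 there were 4 (Tnf, Bcl3, Tnfrsf1b and Tnfrsf1a), against 5.49% of tested genes. DESeq2 called 2, Tnf and Bcl3, beside 0.628% of tested genes, and limma called 0. The median was -0.53 against 0.04 over all tested genes, and 7 genes did not overlap and were lower (13.8% of tested genes), with 1, Relb, higher (14%). The 7 lower genes were Tnf, Tnfrsf1a, Tnfrsf1b, Rela, Nfkbia, Tnfaip3 and Bcl3 in both treatments, which share the DSS model libraries.

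Pooling both treatments against the DSS model left 0 of 10 called, beside 0% of tested genes, with 4 at an unadjusted p under 0.05 (5.74%), 1 in DESeq2 (0.493%) and 0 in limma. Tnf was at -1.81 (SE 0.30, adjusted p = 0.204 in edgeR) and Bcl3 at -1.21 (SE 0.30, adjusted p = 0.502). Between the treatments 0 of 10 were called, beside 0%, and 0 had an unadjusted p under 0.05 or a call in DESeq2 or limma. The 10 differences of Kuiyangling from mesalazine ran from -0.22 for Relb to 0.61 (SE 0.36) for Bcl3. These intervals do not show that the treatments act alike on these genes.

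Against control, Kuiyangling gave 0 of 10 called (0.239% of tested genes), mesalazine 0 of 10 (0.673%) and the mean of the 3 DSS groups 0 of 10 (2.19%). In each of these, 1 gene, Tnfaip3, had an unadjusted p under 0.05, beside 10.3%, 20% and 20.6% of tested genes, so its share of the 10 was no higher than theirs. Neither DESeq2 nor limma called any, beside 2.71%, 7.53% and 7.41% of tested genes in DESeq2 and at most 1.13% in limma. For the mean of the DSS groups its log2 change was -0.83 (SE 0.27, adjusted p = 0.140 in edgeR), and -0.92 (adjusted p = 0.0407) without mesalazine 2, where 16.2% of tested genes were called. In the test of any difference among the 4 groups DESeq2 called 2 of 10 (5.72% of tested genes) and limma 0 (at most 0.179%). With edgeR 0 were called (0.202%), with 3 at an unadjusted p under 0.05 (12.4%), and Tnf had the smallest adjusted p, 0.0969. Without mesalazine 2 the count was 1, beside 7.04% of tested genes.

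Both DSS model libraries were above all 6 others for 5 of the 10 genes, against 4.06% of tested genes, and below all 6 for 0 of 10, against 4.11%. This count was made after the values had been seen. In FPKM it was 4 of 10, Bcl3 being the one lost. Among the 94 other pathway genes tested, 23 were above all 6 and 1, Fasl, below.

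The wider pathway was described by 8 lists of 104 genes in all, of which 94 passed the filter. In the DSS model 5 of the 94 were called, beside 0.247% of all tested genes, and all 5 rose: Cxcl2, Cxcl5, Il1b, Ptgs2 and Plaur. Each belongs to the list of TNF and NF-kB target genes. The count was 0 without control 2 (0.00727% of tested genes), 2 without DSS model 2 (0.0576%), and 10 without mesalazine 1 (1.1%) or mesalazine 2 (1.14%). That list had a median log2 change of 2.60 over its 23 tested genes, with 20 above 0, against -0.04 over all tested genes, and the median was the same with the 2 genes at 0 in control set to their bounds. Other pathway lists had medians between -0.36 (TNF superfamily ligands) and 0.21 (TNF superfamily receptors).

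Cxcl2, a neutrophil-attracting chemokine, had 2 counts in the control group and 349 in the DSS model, a ratio of 205 with a 95% counting interval of 56.3 to 1700. Cxcl5, a chemokine of the same kind, had 0 counts in control and 167 in the DSS model, at least 65.4-fold higher against 3 counts over the group. The interval and this bound cover the counting of reads pooled over each group, and not the spread between animals. Il1b, which encodes interleukin-1 beta, was at 0.883 ± 0.408 CPM in control and 24.9 ± 15.9 CPM in the DSS model (SD, n = 2), a log2 change of 4.83 (SE 0.61, adjusted p = 0.0168 in edgeR). Ptgs2, the inducible cyclooxygenase gene, had a log2 change of 5.35 (SE 0.71), with an adjusted p of 0.0180 in edgeR. Plaur, the urokinase receptor gene, went from 7.64 ± 2.86 to 46.3 ± 7.89 CPM (SD, n = 2), with a log2 change of 2.60 (SE 0.38, adjusted p = 0.0249 in edgeR). Il1b, Ptgs2 and Plaur were named after their values were seen, being the rest of the 5 called.

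With Kuiyangling or mesalazine 0 of 94 were called against the DSS model by edgeR, beside 0% of tested genes in each. At an unadjusted p under 0.05 in edgeR there were 9 and 18, beside 3.56% and 5.49% of tested genes. DESeq2 called 2 and 4 (0.0972% and 0.628% of tested genes) and limma called 0. The target list's medians were -0.94 and -1.19 against all-gene medians of 0.00 and 0.04. Plaur had 12.9 ± 4.14 CPM with mesalazine and 19.7 ± 4.88 CPM with Kuiyangling, and Cxcl2 had 3.03 ± 0.321 and 1.55 ± 0.871 CPM (SD, n = 2). Cxcl5 had 40 counts over the group with mesalazine and 137 with Kuiyangling, beside 167 in the DSS model. In Kuiyangling against control 3 pathway genes rose, Cxcl2, Cxcl5 and Ptgs2, and in mesalazine against control 2, Cxcl2 and Cxcl5. These stood beside 0.239% and 0.673% of tested genes. Without control 2 both counts were 0, beside 0.00727% of tested genes. The first was also 0 without Kuiyangling 1 (0.0072%). The second was 0 without mesalazine 1 (0.0288%) and 17 without mesalazine 2, where 19.6% of tested genes were called.

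**Figure D4:**
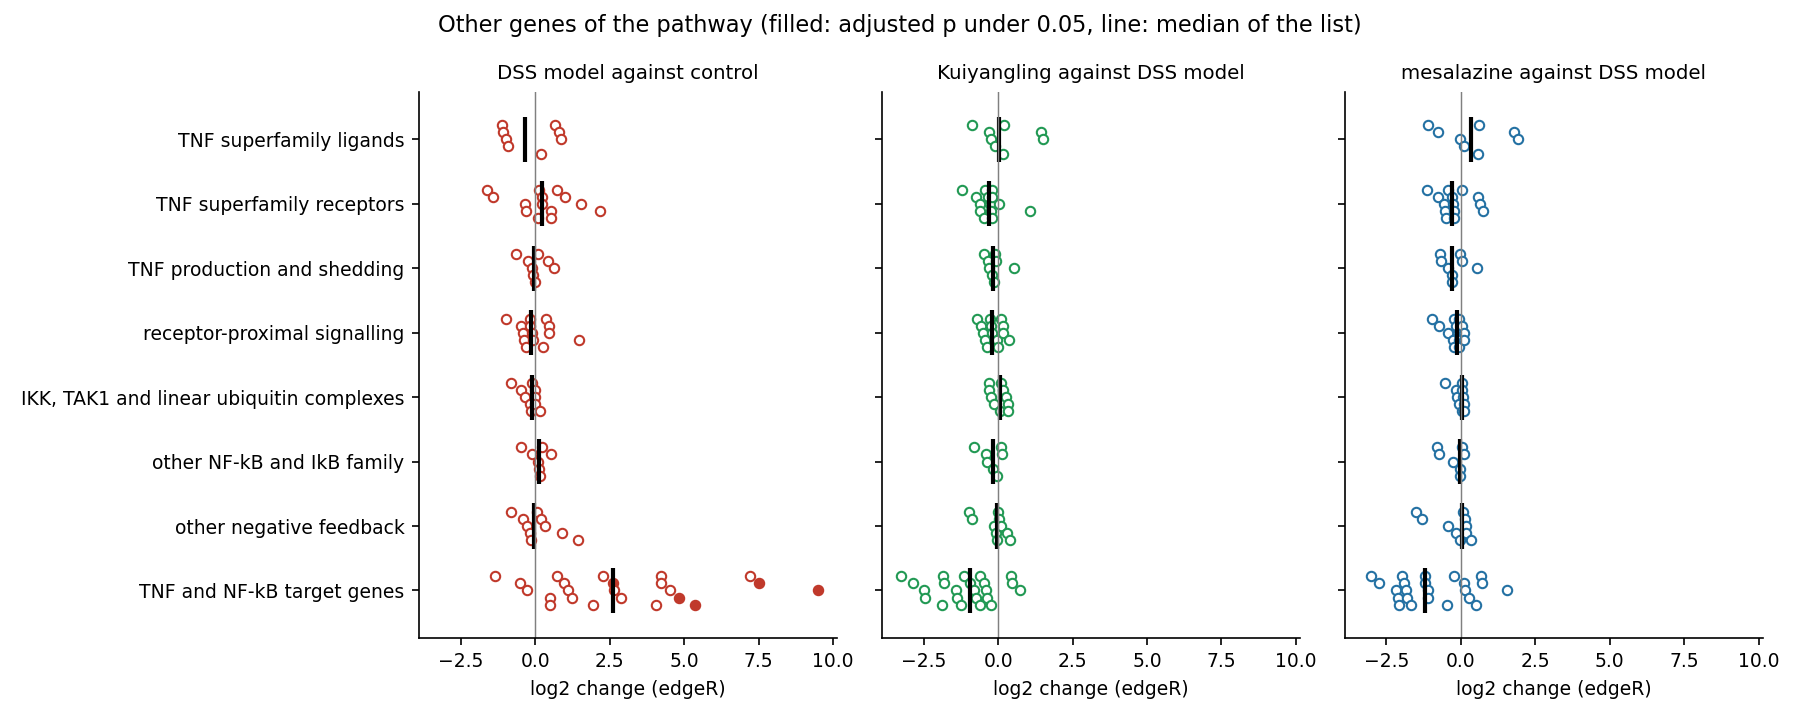
Log2 change of each tested gene of the 8 pathway lists in 3 comparisons, on a shared axis, with filled circles for genes at an adjusted p under 0.05 in edgeR and a line at each list's median. The 5 filled circles all lie in the target gene list of the DSS model comparison; the fitted value of Cxcl5, near the right edge, depends on the prior count because control had 0 counts.

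Other genes of the pathway, given by the smallest p of their list, did not pass the test. Ripk3, a kinase of TNF-driven necroptosis, was at 39.3 ± 6.68 CPM in control and 107 ± 8.28 CPM in the DSS model (SD, n = 2), with an adjusted p of 0.0910 in edgeR. It was 54.8 ± 13.1 CPM with mesalazine and 65.9 ± 9.13 CPM with Kuiyangling. Tnfrsf12a, the TWEAK receptor gene, was at 7.08 and 20.5 CPM on average in control and the DSS model, with 12.1 and 13.3 CPM in mesalazine and Kuiyangling. Tnip3, an A20-binding inhibitor gene, had a log2 change of 1.44 (adjusted p = 0.179 in edgeR). Rnf31, a subunit gene of the linear ubiquitin complex, had -0.82 (adjusted p = 0.374).

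For the genes listed in every comparison, the log2 changes in the DSS model, with Kuiyangling and with mesalazine were, in that order, as follows, and none passed. The adhesion molecule gene Icam1 had 1.21, -1.14 and -1.11. Ier3, an early response gene, had 1.95, -0.61 and -1.10. Ltb, the lymphotoxin beta gene, had -1.13 (SE 0.69), 0.17 and 0.57 and its receptor gene Ltbr had 0.54, -0.43 and -0.24. The control libraries of Ltb, at 1.39 and 8.02 CPM, lay below and above both DSS model libraries. Its lower mean in the DSS model therefore rested on the higher control library. Among other IkB family and feedback genes, Nfkbie had 0.52, -0.79 and -0.72, and Nfkbiz had -0.11, -0.41 and -0.82. Tnip1, whose product binds A20, had -0.82, -0.04 and -0.02. Zfp36, whose product destabilises Tnf mRNA, had -0.07, -0.20 and -0.72, Birc3 had -0.13, 0.01 and -0.25, and Sod2 had 0.50, -0.41 and -0.24.

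Markers of immune cells, among which are sources of TNF, were summed in each library. The 8 monocyte and macrophage markers summed to 73.7 and 104 CPM in control, 141 and 144 in the DSS model, 161 and 77.3 with mesalazine and 101 and 94.8 with Kuiyangling. The mesalazine libraries spanned nearly the whole range, and mesalazine 1 had the highest sum with a Tnf level of 3.61 CPM. Cd14 and Lyz2 made up most of the sum, 94.3 and 21.3 CPM in DSS model 1. Their log2 changes in the DSS model were 0.82 and 0.84, beside -0.13 for Adgre1, 0.17 for C1qa and 0.08 for C1qb, and none of the 8 passed the test in edgeR. The 5 neutrophil markers other than Ly6g summed to 0.149 and 0.432 CPM in control, 27.0 and 47.5 in the DSS model, 22.2 and 8.76 with mesalazine and 8.05 and 5.24 with Kuiyangling. S100a9, Cxcr2 and Retnlg were at 0 in both controls, S100a8 at 0 or 1 count there, and Cxcr2 also at 0 in mesalazine 1 and both Kuiyangling libraries. Ly6g was left out of that sum after its values were seen, since it alone took 843 of 866 CPM in mesalazine 1. The sums of the 6 T and NK cell markers in the table overlapped between control and every other group, at 8.42 and 28.7 CPM in control, 9.06 and 13.9 in the DSS model, 15.9 and 18.2 with mesalazine and 18.0 and 11.6 with Kuiyangling. The part of these cells in the levels of Tnf, Tnfrsf1a, Tnfrsf1b, Nfkbia and Bcl3 was not tested.

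Genes with profiles most like those of Tnf and Bcl3 were sought among 10201 genes of at least 5 CPM, by the root mean square difference of centred log2 CPM over the 8 libraries. For Tnf they were Ccnd1 (0.33), Lif (0.34), Irf8 (0.36), Ttyh1 (0.36) and Il4ra (0.37). Of the other 9 genes, Bcl3 came nearest to Tnf, at place 26 with 0.43, followed by Tnfrsf1a at 34 and Tnfrsf1b at 35. For Bcl3 the nearest were Zc3h12a (0.14), Sh3bp2 (0.20), Agpat4 (0.21), Slc45a3 (0.22) and Ms4a12 (0.23). Zc3h12a was at 40.7 ± 16.6 CPM in control, 76.1 ± 24.6 in the DSS model, 30.7 ± 6.23 with mesalazine and 38.9 ± 4.40 with Kuiyangling (SD, n = 2).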

How the data were processed

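RNA from colonic mucosa was extracted with the mirVana kit and made into TruSeq stranded mRNA libraries, per the labels' protocols. The authors deposited raw read counts and FPKM per gene. Reads were trimmed with Trimmomatic and aligned with HISAT2, per the submitters' processing notes; build, annotation, counter and strand setting are not given in the sources used here. The deposited FPKM, whose ratio to the counts gave 1 fixed length per gene in all libraries, gave levels between genes. From the counts, CPM were computed on TMM-adjusted library sizes, and all 8 libraries were fitted once with edgeR 4.0.16 in R 4.3.3 after its expression filter, with a mean per group. Genes were called at an adjusted p under 0.05. DESeq2 1.42.0, limma 3.58.1 on log2(FPKM + 1) or log2(FPKM + 0.1) and other settings were alternatives. A column of the tables spelled unlike its label was taken as mesalazine replicate 2. Named genes were the 10 members, a panel of 10 and, per list, those called or with the smallest p. Members and lists were chosen with earlier results of these data known. The code was tested on simulated data.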

Additional observations from a re-analysis of the deposited data

How the results depend on the processing

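Of 345 alternative counts, of genes called or of members without overlap, 280 equalled the value reported or stayed within 1.5 times it. The other 65 did not, and the cause was not tested. A reported 0 was kept only by another 0. Among the 10 members, where edgeR called 0 throughout, the number called without a filter on low counts was 1 in the DSS model against control and 2 each in mesalazine against the DSS model, the pooled treatments against the DSS model and the test of any difference. DESeq2 gave 1, 2, 1 and 2 in the same order. The shares of all genes called were 2.81%, 0.599%, 0.599% and 4.99% without the filter and 3.46%, 0.628%, 0.493% and 5.72% in DESeq2. Tnf with Kuiyangling against the DSS model reached an adjusted p of 0.068 at the lowest over all alternatives. With control 2 and mesalazine 1 left out together, 1 was called for the pooled treatments (1.5% of genes) and 1 for any difference (1.4%). Leaving out single libraries gave 0 to 1 in mesalazine against control, in the mean of the DSS groups against control and in any difference. The 1 came each time without mesalazine 2, where 19.6%, 16.2% and 7.04% of genes were called.

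Among the 94 other pathway genes, without the filter 17 were called in the DSS model against control, 2 in Kuiyangling and 5 in mesalazine against the DSS model, 9 in Kuiyangling and 9 in mesalazine against control, 18 for the mean of the DSS groups, 6 for the pooled treatments and 19 for any difference. All-gene shares were 2.81%, 0.0634%, 0.599%, 2.6%, 6.28%, 6.74%, 0.599% and 4.99%. DESeq2 gave 15, 2, 4, 6, 8, 16, 3 and 17 in that order, with all-gene shares of 3.46%, 0.0972%, 0.628%, 2.71%, 7.53%, 7.41%, 0.493% and 5.72%. With limma on log2(FPKM + 1) there were 3 in the DSS model, 1 in Kuiyangling and 0 in mesalazine against control, and 3 for the mean of the DSS groups (0.142%, 0.0523%, 0.0822% and 0.874% of genes). Scaling by library total alone gave 1 in Kuiyangling against control (0.0673%). Without control 2 and mesalazine 1 there were 14 in the DSS model against control, 1 in Kuiyangling and 1 in mesalazine against the DSS model, 0 in mesalazine against control, 5 for the pooled treatments and 9 for any difference (1.42%, 0.204%, 0.591%, 0.168%, 1.5% and 1.4% of genes). Fits of only the 2 groups compared gave 1 in Kuiyangling against the DSS model, 1 in Kuiyangling against control and 5 in mesalazine against control (0.163%, 0.145% and 2.43%). The counts against control and for any difference also moved when single libraries were left out. In such fits the other groups set the spread of the lone library.

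Same-numbered libraries correlated between -0.311 and 0.162 in their deviations from the group means, so the numbers were not taken to pair animals. With a replicate block 0 members were called in every comparison, beside at most 2.1% of genes. It called 5 pathway genes in mesalazine against control (0.986% of genes) and 5 for any difference (0.531%). An alternative chosen after seeing the data joined a replicate block of crossed numbers with a fit of only the 2 groups compared. It called 2 members in the DSS model against control and 2 in mesalazine against the DSS model, and 14 and 12 pathway genes, beside 6.77% and 2.15% of genes. The 2-group fit with no block called 0 members in either, beside 0.341% and 0%.

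Tnf, Tnfrsf1a, Tnfrsf1b, Nfkbia and Bcl3 kept their sign under every alternative in the DSS model against control and in each treatment against the DSS model. For these genes both DSS model libraries stood above the 6 others in CPM, so leaving out libraries could scarcely turn the sign. Of all 80 log2 changes of the members, 37 turned sign under at least 1 alternative, of which 1, Tnfaip3 in the DSS model, was at least 0.4 in size. In the DSS model against control, Nfkb2 was -0.0020 and -0.0052 with limma (pseudocounts 1 and 0.1) and -0.19 to 0.48 with single libraries left out. Rela was -0.10 with library totals, -0.061 and -0.063 with limma and -0.30 to 0.50 with single libraries left out. Relb was -0.62 to 0.28 and Tnfaip3 -0.83 to 0.12 with single libraries left out, and 0.26 and 0.10 without control 2 and mesalazine 1. Against the DSS model with single libraries left out, Nfkb2 was -0.58 to 0.074 with Kuiyangling, -0.52 to 0.13 with mesalazine and -0.55 to 0.10 with both pooled. Relb was -0.25 to 0.29 with Kuiyangling, and Nfkb1 was -0.24 to 0.18 with mesalazine and -0.070 to 0.13 with both pooled. Correction for gene length gave -0.078 for Relb with Kuiyangling and 0.00027 for Nfkb1 with mesalazine, which was 0.19 without control 2 and mesalazine 1.

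The median of all genes in the DSS model against control was -0.04 as reported, -0.20 with library totals and -0.12 and -0.18 with limma. Each group had 2 animals, and with single libraries left out the other groups set the spread of the lone library. Tnf had the fewest counts of the 10 members.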
